A study of Mus musculus with 30 samples.

Results

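The 4 tumors grown from the fibrosarcoma line MCA-943 were compared with the 8 tumors grown from the line MCA-948, 12 of the 30 tumors of the series, which holds 5 such lines. Membership was taken from the line name at the start of each sample title. The comparison was repeated on the 10 tumors whose library numbers in the column names lie close together, called the shared run here although no label names a run. These are all 4 MCA-943 tumors and the 6 MCA-948 tumors W-1D, W-2D, W-1G, W-2G, a-1G and a-2D. The other 2 MCA-948 tumors, a-2G and a-R, carry lower library numbers that lie apart from these, called the other run.

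The series asked how tumors that differ in their sensitivity to NK1.1+ cells differ in gene expression. Tumors had been induced in mice with methylcholanthrene, the carcinogen abbreviated MCA, taken into culture as cell lines, and injected under the skin of C57BL/6 mice. In the paper's transplantation experiments, part of the host mice also received a depleting antibody against NK1.1. The paper does not say which hosts, treated or untreated, bore the sequenced tumors. Hematopoietic cells were removed from the resected tumors with CD45 beads, and RNA of the remaining cells was sequenced in bulk. The label for mouse strain reads Ncr1Cre for MCA-943 and Ncr1Cre R26DTA for MCA-948, both on a C57BL/6 background. Ncr1 drives Cre in cells that carry NKp46, such as NK cells, and R26DTA makes a diphtheria toxin subunit in cells with Cre. The label for NK cell sensitivity reads No for MCA-943 and Yes for MCA-948. Line, strain label and sensitivity label changed together, so they cannot be told apart. The tumors of each line descend from 1 cell line of 1 primary tumor, and every p-value below therefore measures the spread between these tumors only. Titles also carry the letter W (1 MCA-943 and 4 MCA-948 tumors) or a (3 and 4), which the labels do not explain and which was not mapped to a condition. Age and sex of the host mice are not given in the sources used here.

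Fibrosarcomas are malignant tumors of fibroblast-like cells, which make the collagens and proteoglycans of connective tissue. Nearly all cells show peptides on MHC class I molecules, which CD8+ T cells read and which restrain NK cells through inhibitory receptors. Interferons raise the class I genes, the peptide transporter and the immunoproteasome together through IRF factors and the coactivator NLRC5. Methylcholanthrene tumors arise separately in each mouse and differ from each other in their mutations.

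Between 30025426 and 45111926 counts were assigned to genes in the MCA-943 tumors and between 29765480 and 46537062 in the MCA-948 tumors. Levels are given as CPM, normalized counts per 1000000, which compare a gene between tumors but not 1 gene with another. The values of the 4 MCA-943 tumors are written in the order W-2G, a-1D, a-1G and a-R. For MCA-948, the lowest and the highest of the 8 tumors are given with the median. Fold changes are on the log2 scale, MCA-943 over MCA-948, with the standard error (SE) and the Benjamini-Hochberg adjusted p of edgeR's quasi-likelihood test. A gene was called where the adjusted p was under 0.05 and the lines differed by 1 or more on the log2 scale, in either direction. The mean Pearson correlation between an MCA-943 and an MCA-948 tumor was 0.924 over 16862 genes, the lowest of the 10 pairs of lines, against 0.994 among the MCA-943 tumors and 0.99 among the MCA-948 tumors. That correlation is across genes, which are not independent replicates. Most genes given tumor by tumor follow from a rule of size and level. Ptprc, Cd74, H2-Ab1, H2-D1, Tap1, Psmb8, Psmb9, Nlrc5, Isg15, Gbp2, Ifngr1, Ifng, Ifnb1, Hgf, Mdm2, Cdkn1a, Pecam1 and most genes given by a fold change alone were chosen after their values were seen. A value in parentheses after a gene is its log2 fold change.

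Of 16862 genes tested, 2993 (17.7%) were called higher and 1897 (11.3%) lower in MCA-943. Counts of called list members below stand against these shares. Within the shared run, 15220 genes were tested, and 2758 (18.1%) were called higher and 1742 (11.4%) lower. Of the 4323 called genes that were also tested within the run, 4130 were called there in the same direction and 0 in the opposite direction. More genes differed widely toward MCA-943 than toward MCA-948, with 837 against 302 called genes beyond 8-fold. Inside MCA-948, 143 genes (0.848%) were called higher and 245 (1.45%) lower in the 6 tumors of the shared run than in the 2 of the other run.

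Markers of hematopoietic cells were not level among the tumors. Ptprc, the gene of CD45 itself, stood at 25.1, 18.7, 3.14 and 2.94 CPM in MCA-943 and at 0.720 to 9.18 CPM (median 2.73) in MCA-948. It was called higher (1.78 ± 0.75 (SE), adjusted p = 0.0404), a call that was lost within the shared run and without W-2G or a-1D of MCA-943 or W-1G, W-2D, a-2G, a-2D or a-R of MCA-948. The summed level of 7 hematopoietic markers was 24.1 to 111 CPM in MCA-943, highest in W-2G and a-1D, and 5.73 to 40.1 CPM in MCA-948, and 4 of the 7 were called higher in MCA-943. For 12 T and NK cell markers the sums were 6.69 to 35.1 and 3.05 to 11.7 CPM, with 7 of the 9 tested markers called higher. For 8 macrophage markers they were 25.8 to 138 and 32.2 to 184 CPM, and for 9 endothelial markers 66.2 to 144 and 24.6 to 405 CPM, with 0 called in both lists. The sum of 10 fibroblast markers was 56800 to 64700 CPM in MCA-943 and 11900 to 17000 CPM in MCA-948, with 9 of the 10 called higher in MCA-943. Both lines thus expressed markers of their labelled cell type, but at unequal levels. In bulk RNA, fewer cells of a type and less RNA per cell cannot be told apart.

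**Figure D1:**
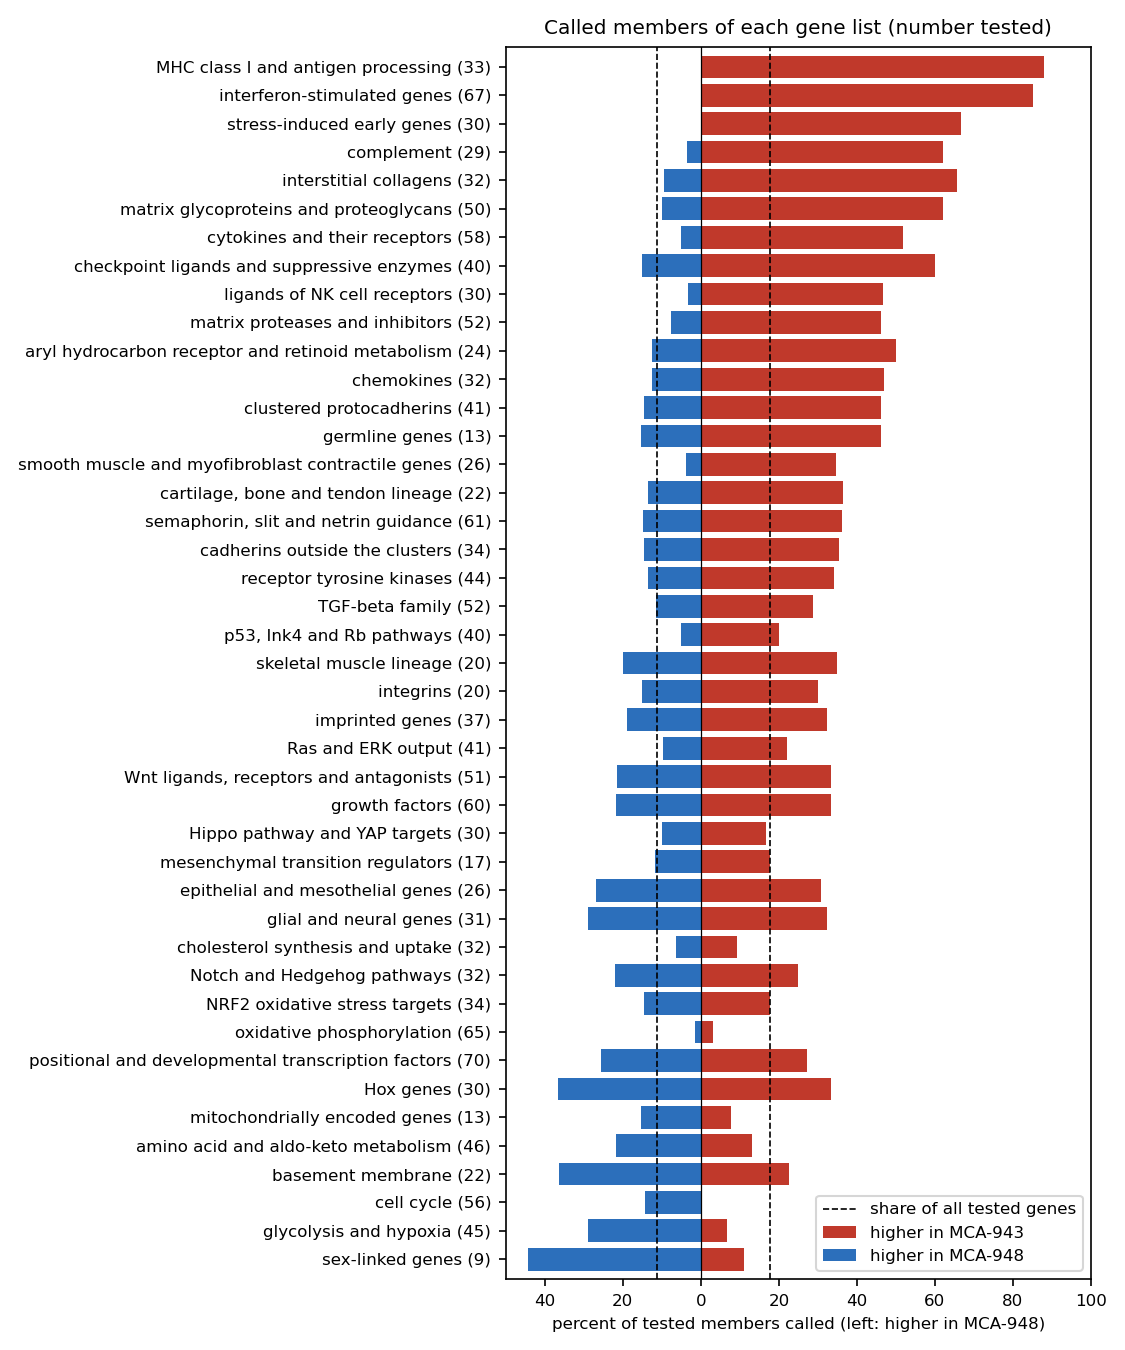
Percent of the tested members of each of 43 gene lists that were called higher in MCA-943 (red, right) or higher in MCA-948 (blue, left), with the number of tested members in parentheses. Dashed lines mark the shares among all tested genes, 17.7% and 11.3%; the MHC class I and interferon-stimulated lists extend farthest to the right, to 87.9% and 85.1%, with 0 members to the left.

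MHC class I genes and their partners were higher in MCA-943 at nearly every step of antigen presentation. Of the 33 genes of the list, all tested, 29 were called higher and 0 lower, with a median log2 fold change of 3.38 against -0.01 over all tested genes. Within the shared run 28 of 32 were called higher, with a median of 3.5. B2m, the invariant light chain of every class I molecule, stood at 3530, 3400, 2950 and 3850 CPM in MCA-943 and at 286 to 368 CPM (median 340) in MCA-948. The 2 groups lay far apart, with a log2 fold change of 3.38 ± 0.13 (SE), adjusted p = 5.2e-19. H2-K1, a classical heavy chain, reached 2190, 2020, 1630 and 2520 CPM in MCA-943 against 13.9 to 33.1 CPM (median 21.5) in MCA-948. Its log2 fold change was 6.57 ± 0.21 (SE), adjusted p = 1.99e-20, and the other 3 lines had means of 328, 1020 and 84.4 CPM (MCA-969, MCA-970 and MCA-972). H2-D1, the other classical heavy chain of this background, was at 2680, 2420, 2090 and 2910 CPM and at 61 to 80.9 CPM (median 66.9), a log2 fold change of 5.23 ± 0.16 (SE), adjusted p = 4.26e-21.

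The widest differences in the list were in nonclassical chains of the Qa region. H2-Q4 measured 567, 533, 418 and 648 CPM in MCA-943 and 0.575 to 3.03 CPM (median 1.7) in MCA-948. H2-Q6 and H2-Q7, which are close to identical in sequence and may exchange reads, measured 355 to 614 CPM and 204 to 339 CPM in MCA-943, while no MCA-948 tumor exceeded 1 CPM in either. Their log2 fold changes were 10.33 and 10.07. H2-T23, which encodes Qa-1, the ligand of the NK receptor NKG2A, had a log2 fold change of 3.61.

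The machinery that loads these chains followed the same direction. Tap1, a subunit of the peptide transporter, was at 188, 177, 127 and 249 CPM in MCA-943 and 0.406 to 2.52 CPM (median 1.2) in MCA-948 (log2 fold change 7.07 ± 0.36 (SE), adjusted p = 8.32e-16). Psmb8 and Psmb9, catalytic subunits of the immunoproteasome, measured 123 to 223 CPM and 28.9 to 66.8 CPM in MCA-943. In MCA-948 they measured 0.329 to 1.55 CPM (median 0.965) and 0.0917 to 0.562 CPM (median 0.250). Nlrc5, the coactivator that drives class I promoters, stood at 67.2, 74.9, 52.8 and 97.7 CPM against 0.203 to 0.973 CPM (median 0.433), with a log2 fold change of 7.23 ± 0.25 (SE), adjusted p = 1.44e-19. Every MCA-948 tumor was below 1 CPM for Nlrc5. The 4 members that were not called were the chaperones Canx, Calr and Pdia3 and the lipid-presenting Cd1d1, at log2 fold changes of 0.05, 0.36, 0.49 and 0.83.

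The list also holds class II genes, which are made mainly by antigen-presenting cells, and these behaved differently between tumors. Cd74, the class II chaperone, was at 26.2, 45.3, 5.25 and 18.6 CPM in MCA-943 and 1.08 to 9.86 CPM (median 2.44) in MCA-948. H2-Ab1, a class II chain, was at 8.57, 13.7, 1.55 and 3.87 CPM and 0.547 to 3.17 CPM (median 1.09). Both were called higher, yet a-1G lay within the MCA-948 range for both, and the highest values were in a-1D and W-2G, the 2 MCA-943 tumors with the most Ptprc. H2-K1 had the same order as Ptprc in W-2G, a-1D and a-1G, while a-R had the highest H2-K1 and the lowest Ptprc of the 4. Without W-2G and a-1D, a setting chosen after seeing the data, 24 members of the list were called higher, and the 5 lost were the class II genes Cd74, Ciita, H2-Aa, H2-Ab1 and H2-Eb1. With the hematopoietic score as a covariate 28 were called higher.

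The promoters of many of these genes carry short elements that interferon regulatory factors can bind. The letters AANNGAAA, or TTTCNNTT for the same element on the other strand, were searched in the 250 bases before each RefSeq transcription start (GRCm38.p6). They occurred in 13 of the 24 genes of the class I list that had a promoter entry (54.2%) and in 30 of 50 interferon-stimulated genes (60%), against 23.9% of 27025 genes. The shares were 19.2% for interstitial collagens, 22.6% for the p53 list and 15.2% for cell cycle genes. A match describes the letters in this window and not a bound site. The stretches below, from RefSeq, show B2m, several heavy chains and 4 interferon-stimulated genes. The heavy chains H2-K1, H2-D1, H2-Q4, H2-Q6 and H2-Q7 share the element in nearly the same surroundings. H2-T23, not printed below, has 2 matches in other surroundings. The element is in capitals, and overlapping matches form a longer run.
B2m, chr2:122147530-122147577, plus strand: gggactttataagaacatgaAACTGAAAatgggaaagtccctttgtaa
H2-K1, chr17:34000410-34000457, minus strand: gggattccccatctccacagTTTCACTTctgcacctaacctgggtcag
H2-D1, chr17:35262924-35262971, plus strand: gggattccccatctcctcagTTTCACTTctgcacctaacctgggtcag
H2-Q4, chr17:35379444-35379491, plus strand: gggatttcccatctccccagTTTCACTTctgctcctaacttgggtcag
H2-Q6, chr17:35424678-35424725, plus strand: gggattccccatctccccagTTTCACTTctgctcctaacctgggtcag
H2-Q7, chr17:35439022-35439069, plus strand: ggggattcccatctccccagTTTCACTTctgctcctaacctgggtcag
Gbp2, chr3:142620584-142620631, plus strand: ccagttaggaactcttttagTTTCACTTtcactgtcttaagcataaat
Ifit1, chr19:34640765-34640831, plus strand: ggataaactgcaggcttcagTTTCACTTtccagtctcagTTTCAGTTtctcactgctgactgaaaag
Ifit3, chr19:34583353-34583434, plus strand: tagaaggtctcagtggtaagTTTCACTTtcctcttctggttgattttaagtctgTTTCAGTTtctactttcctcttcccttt
Isg15, chr4:156200855-156200966, minus strand: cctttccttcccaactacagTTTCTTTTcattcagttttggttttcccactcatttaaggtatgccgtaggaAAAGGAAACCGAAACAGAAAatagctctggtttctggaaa

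Interferon-stimulated genes formed the list with the highest median. All 67 were tested, 57 were called higher in MCA-943 and 0 lower, and the median log2 fold change was 4.44. Within the shared run 59 were called higher. Irf7, which amplifies type I interferon production, was at 126, 142, 62.4 and 243 CPM in MCA-943 and at 0.913 to 5.77 CPM (median 2.62) in MCA-948 (log2 fold change 5.72 ± 0.43 (SE), adjusted p = 2.48e-12). Isg15, a ubiquitin-like modifier, was at 86, 86.4, 36.9 and 125 CPM and at 0.778 to 4.99 CPM (median 2.67). In both genes a-1G was the lowest and a-R the highest MCA-943 tumor, and a-1G still exceeded every MCA-948 tumor.

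Several effectors of the interferon response differed widely between the lines. Cxcl9, a chemokine that attracts T cells and is induced mainly by interferon gamma, spread widely within MCA-943, at 221, 288, 118 and 737 CPM, but no MCA-948 tumor passed 2 CPM (0.101 to 1.67 CPM (median 0.549)). Gbp2, a guanylate-binding protein that attacks intracellular pathogens, was at 295, 353, 203 and 598 CPM against 7.54 to 17.5 CPM (median 9.3) (log2 fold change 5.10 ± 0.39 (SE), adjusted p = 2.92e-12). Oas2, a sensor of double-stranded RNA, was at 46.9, 57.4, 22.9 and 71.5 CPM against 0 to 0.221 CPM (median 0.0566) (log2 fold change 9.18 ± 0.59 (SE), adjusted p = 7.42e-14). Ubd, a ubiquitin-like protein induced by inflammatory cytokines, and Ifi27l2a, a small interferon-induced membrane protein, were among the 12 genes with the largest eligible differences toward MCA-943, at log2 fold changes of 10.24 and 9.04. Several of these families lie side by side in the genome and moved as runs: 16 neighbouring genes on chromosome 1 that include the Ifi200 family, 11 on chromosome 11 that include Irgm1, Tgtp1 and Tgtp2, 6 Trim genes on chromosome 7 and 5 Oas genes on chromosome 5 were all called higher. Reads of near-identical members such as Tgtp1 and Tgtp2 may be exchanged.

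The genes that sense interferon were less uniform, and the interferons were scarcely detected. Ifngr1, the ligand-binding chain of the interferon gamma receptor, was at 183, 164, 171 and 190 CPM and 41.3 to 69.2 CPM (median 50.5), a log2 fold change of 1.74 ± 0.10 (SE), adjusted p = 3.01e-15. Ifngr2, Ifnar1 and Ifnar2, the other receptor chains, were not called (0.26, 0.02 and 0.32), and neither was the feedback inhibitor Socs1 (0.35). Ifng was at 0.576, 0.296, 0 and 0.245 CPM in MCA-943 and at most 0.0676 CPM in MCA-948. Ifnb1 was at 0.237, 0.271, 0 and 0.367 CPM and at most 0.0338 CPM. Both were too low to be tested, and both were at 0 in a-1G. Without W-2G and a-1D, the MCA-943 tumors with the most Ptprc, 57 interferon-stimulated genes were called higher, with no call of the list lost. With the hematopoietic score as a covariate 58 were called higher and 1 lower.

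**Figure D2:**
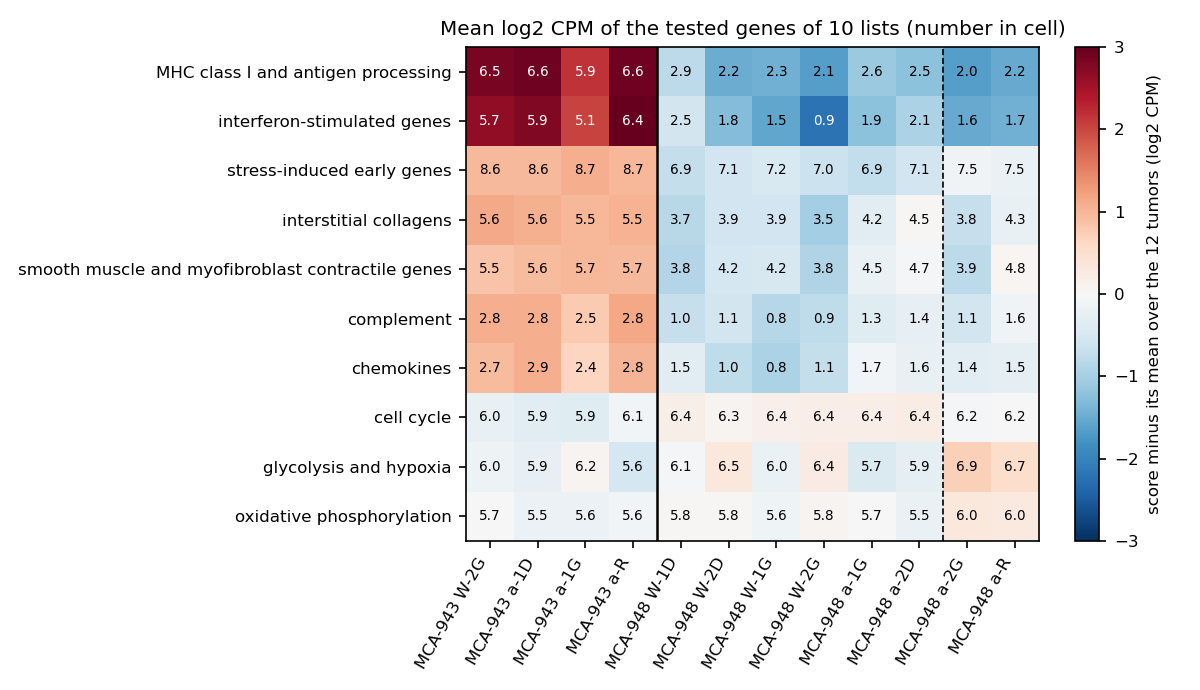
Mean log2 CPM of the tested genes of 10 lists (rows) in each of the 12 tumors (columns), with the value in the cell and the colour giving its distance from the mean over the 12 tumors; the solid line separates the 4 MCA-943 tumors from the 8 MCA-948 tumors and the dashed line the 2 MCA-948 tumors of the other run. The MHC class I score is 5.88 to 6.63 in MCA-943 and 2.05 to 2.91 in MCA-948, the interferon score 5.11 to 6.40 and 0.87 to 2.54, and a-1G has the lowest of both scores within MCA-943.

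Ligands that NK cells and T cells read were also unequal between the lines. Of 45 listed ligands of NK cell receptors 30 were tested, and 14 were called higher in MCA-943 and 1 lower. Il15, the cytokine on which NK cells depend, was at 39.5, 40.8, 34.9 and 50 CPM in MCA-943 and 0.913 to 3 CPM (median 2) in MCA-948 (log2 fold change 4.34 ± 0.23 (SE), adjusted p = 7.21e-16). Cd80, a costimulatory ligand of CD28 and CTLA-4, was at 27.7, 22.2, 22.9 and 22.3 CPM against 0.0655 to 0.502 CPM (median 0.287) (log2 fold change 6.35 ± 0.34 (SE), adjusted p = 9.24e-16). Tnfsf9, the ligand of 4-1BB, was at 12.3, 10.9, 17.6 and 11.5 CPM against 0.0917 to 0.287 CPM (median 0.228). In these 3 genes each MCA-943 tumor lay far above every MCA-948 tumor. No tested ligand of the activating receptor NKG2D was called, but its ligands Raet1a, Raet1b, Raet1c, H60a and H60c were not tested. Ulbp1 was at 22.9, 22.3, 29.1 and 18.9 CPM and 33.9 to 47.8 CPM (median 43.1), below MCA-948 in every tumor but by less than the size that a call needed (log2 fold change -0.83 ± 0.13 (SE), adjusted p = 1.22e-06). Raet1d had a log2 fold change of -1.40 and H60b of -0.55. The DNAM-1 ligands Pvr and Nectin2, at -0.78 and -0.08, were not called either.

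Genes that restrain immune cells were mostly higher in MCA-943. Of 46 checkpoint ligands and suppressive enzymes 40 were tested, 24 were called higher and 6 lower, with a median of 1.42. Within the shared run 24 were called higher and 3 lower. Cd274, which encodes PD-L1, was at 12.8, 16.2, 9.34 and 25.4 CPM and 1.25 to 3.89 CPM (median 1.81), a log2 fold change of 2.92 ± 0.38 (SE), adjusted p = 1.05e-07. Ido1, which degrades tryptophan, was at 1.36, 1.01, 1.1 and 1.91 CPM and 0.0266 to 0.104 CPM (median 0.0644). Tnfrsf14, the ligand of BTLA, was at 7.02, 7.01, 6.5 and 6.47 CPM and 0 to 0.241 CPM (median 0.116). All 3 separated the lines, although Ido1 did so at a low level. Lower in MCA-943 were Nt5e, the enzyme CD73 that makes adenosine (log2 fold change -1.53 ± 0.30 (SE), adjusted p = 6.87e-05), and Arg2, a mitochondrial arginase (-2.47). The Arg2 call was lost with the hematopoietic score as a covariate.

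Chemokines, cytokines and complement showed the same lean. Of 32 tested chemokine genes (40 listed) 15 were called higher and 4 lower. Cxcl12, a stromal chemokine that retains leukocytes, was at 471, 525, 533 and 489 CPM against 3.3 to 38.1 CPM (median 21.8) (log2 fold change 4.58 ± 0.42 (SE), adjusted p = 1.42e-10). Cx3cl1, a membrane-bound chemokine, was at 167, 132, 123 and 174 CPM against 3.27 to 6.96 CPM (median 3.94). Neither overlapped between the lines. Within MCA-943, Cxcl12 was highest in a-1G and Cx3cl1 in a-R, while a-1G was the lowest for Cx3cl1. The 4 lower chemokines were Ccl25, Ccl27a, Ccl28 and the platelet factor Pf4. Of 58 tested cytokines and receptors (61 listed) 30 were called higher, among them Tnfsf13b, the B cell survival factor BAFF (5.24), the alarmin Il33 (4.21) and Il7 (4.21), and 3 lower, Csf3, Tnfrsf9 and Tnfrsf19, against 1 lower within the shared run. The Csf3 call was lost without W-2G, a-1D or a-R of MCA-943, and the Tnfrsf9 call within the shared run and without a-R of MCA-943. Of 29 tested complement genes (38 listed) 18 were called higher and 1 lower. C3, the central component, was at 218, 154, 165 and 258 CPM and 5.58 to 16.8 CPM (median 11.8), and C1s1, a protease of the classical pathway, was at 196, 204, 185 and 303 CPM and 6.7 to 13.9 CPM (median 9.77). The log2 fold change was 4.21 ± 0.34 (SE), adjusted p = 1.1e-11 for C3 and 4.54 ± 0.30 (SE), adjusted p = 1.03e-13 for C1s1. Without W-2G and a-1D, the members called higher were 13 of the NK cell ligands, 24 of the checkpoint list, 14 chemokines, 28 cytokines and receptors and 17 complement genes.

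**Figure D3:**
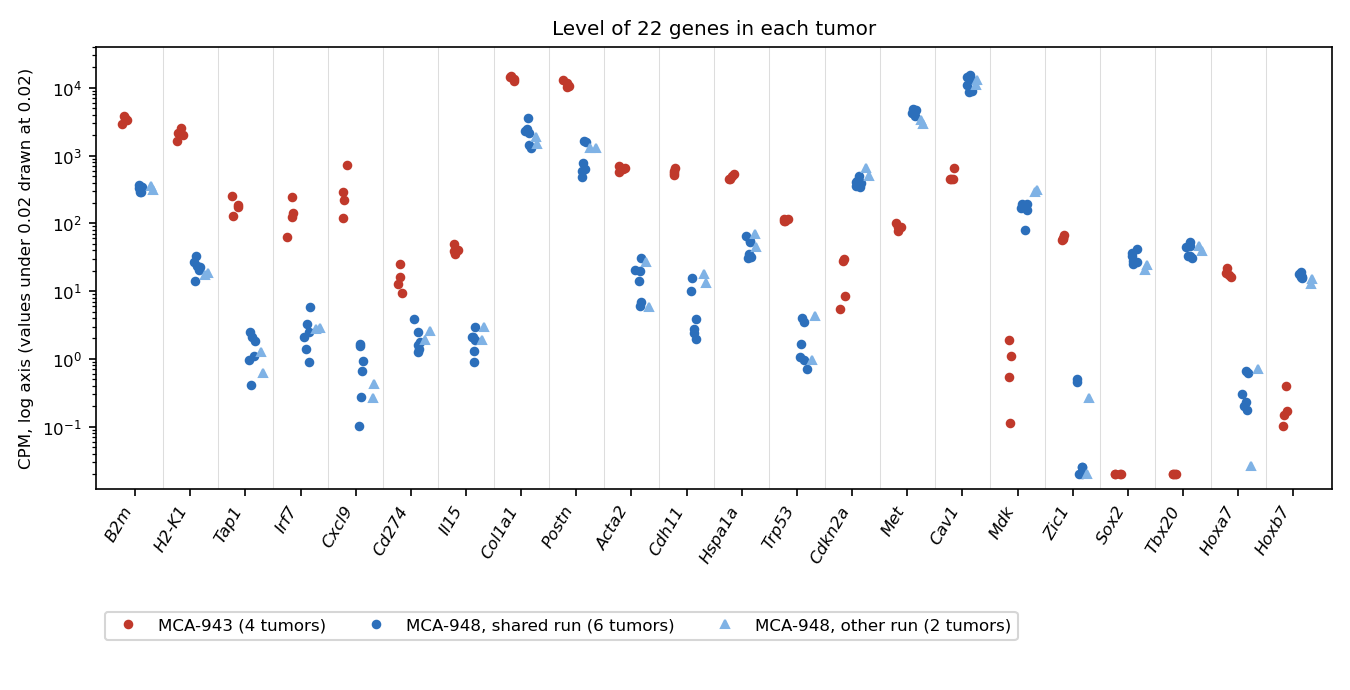
Level of 22 genes in each tumor on a log axis of CPM, with MCA-943 in red, MCA-948 of the shared run in dark blue and the 2 MCA-948 tumors of the other run as light blue triangles; values under 0.02 CPM are drawn at 0.02. Red points lie above the blue ones for B2m, H2-K1, Tap1, Irf7, Cxcl9, Trp53 and Hoxa7 and below them for Cdkn2a, Met, Cav1, Mdk, Sox2 and Hoxb7, and the triangles lie at the top of the MCA-948 range for Mdk.

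The connective tissue matrix of the lines differed in amount and in kind. Of 32 tested interstitial collagens (35 listed) 21 were called higher in MCA-943 and 3 lower, with a median of 1.94. Col1a1, the main chain of type I collagen, was at 14300, 13500, 14700 and 12600 CPM in MCA-943 and 1310 to 3540 CPM (median 2040) in MCA-948 (log2 fold change 2.73 ± 0.26 (SE), adjusted p = 2.36e-10). Its partner chain Col1a2 was at 14200, 13800, 15100 and 13200 CPM and 559 to 2690 CPM (median 1610) (log2 fold change 3.16 ± 0.26 (SE), adjusted p = 1.3e-11). Col28a1, a minor chain found around nerves, differed most, at 81.1, 65.3, 44.1 and 47.6 CPM against 0.0261 to 1.01 CPM (median 0.152). Higher in MCA-948 were Col12a1, at 91.1, 87.6, 178 and 109 CPM and 224 to 587 CPM (median 282), Col13a1 and Col25a1. Col13a1 was also called between the runs within MCA-948.

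Glycoproteins and proteoglycans of the matrix followed the collagens, with 31 of 50 tested genes (54 listed) called higher and 5 lower. Postn, or periostin, a matrix protein of activated fibroblasts, stood at 10500, 11900, 13000 and 10400 CPM against 477 to 1640 CPM (median 1030) (log2 fold change 3.46 ± 0.34 (SE), adjusted p = 6.83e-10). Thbs4, a thrombospondin of tendon and muscle, was at 917, 775, 870 and 750 CPM against 1.19 to 19.5 CPM (median 7.27) (log2 fold change 6.70 ± 0.60 (SE), adjusted p = 9.39e-11). Cilp, a cartilage protein that binds TGF-beta, was at 2850, 2880, 2380 and 3000 CPM against 7.1 to 76.4 CPM (median 28.2) (log2 fold change 6.31 ± 0.52 (SE), adjusted p = 1.83e-11). For all 3 genes the lines lay far apart. The opposite case was Acan, the large aggregating proteoglycan of cartilage, with 0 counts in all 4 MCA-943 tumors and 11.1 to 37.1 CPM (median 15) in MCA-948, at least 195-fold higher there against a floor of 3 counts per library. Other cartilage genes went different ways: Col2a1 and Comp were called higher in MCA-943 (2.02 and 2.33), calls that were lost with the hematopoietic score as a covariate, and Sox9, the cartilage regulator, was at 148, 146, 160 and 156 CPM and 97 to 207 CPM (median 148) and was not called.

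Basement membrane genes did not share this direction. Of 22 tested (26 listed) 5 were called higher and 8 lower, with a median of -0.69. The laminin chains split, with Lama4 at 711, 754, 871 and 622 CPM and 33.3 to 145 CPM (median 81.1) and Lama2 also higher (3.81), but Lama1 lower at 0.0678, 0.0493, 0.0756 and 0.0245 CPM and 0.557 to 3.85 CPM (median 2.08), together with Lama3 (-1.86) and Lamc3 (-2.77). Lama1 was also called between the runs within MCA-948. Col4a1, the main network collagen of basement membranes, was at 117, 78.8, 115 and 206 CPM and at 60.8 to 817 CPM (median 211), and these ranges overlapped. Its call was lost without any 1 of W-2G, a-1D and a-1G of MCA-943 or a-1G, a-2D and a-R of MCA-948, and within the shared run. The summed endothelial markers, at 24.6 to 405 CPM in MCA-948, were like Col4a1 highest in a-R, and their part in Col4a1 was not tested. Matrix proteases and their inhibitors had 24 called higher and 4 lower of 52 tested (56 listed), including the collagen crosslinking enzymes Lox (3.57) and Loxl3 (3.87), Adamts2, which trims procollagen (4.39), and Mmp23 at 78.9, 68.7, 70 and 73.1 CPM against 0.575 to 1.6 CPM (median 0.821). Mmp14 and Mmp2, the collagenase activator and the gelatinase that are abundant in fibroblasts, were not called (0.28 and 0.94).

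MCA-943 also expressed genes of smooth muscle and myofibroblasts that MCA-948 scarcely expressed. Of 26 tested contractile genes (27 listed) 9 were called higher and 1 lower. Acta2, smooth muscle actin, was at 636, 654, 707 and 564 CPM against 5.89 to 31.1 CPM (median 17) (log2 fold change 5.28 ± 0.40 (SE), adjusted p = 2.99e-12). Tagln, an actin-binding protein, was at 161, 187, 224 and 131 CPM against 1.01 to 9.95 CPM (median 3.23) (log2 fold change 5.46 ± 0.41 (SE), adjusted p = 2.27e-12). Actg2, the enteric smooth muscle actin, was at 129, 107, 119 and 115 CPM and never above 1 CPM in MCA-948 (log2 fold change 8.57 ± 0.46 (SE), adjusted p = 1.83e-15). Myl9 (4.95) and Cnn1 (4.12) belonged to the same group. In contrast Myh11, smooth muscle myosin (-0.90), Srf, the transcription factor of this program (-0.09), Flna (-0.01) and Vcl (0.15) were not called. The 5 pericyte markers summed to 164 to 228 CPM in MCA-943 and 120 to 222 CPM in MCA-948, with 2 of them called lower and 0 higher.

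Adhesion genes differed in both directions. Cdh11, the cadherin of mesenchymal cells, was at 557, 584, 521 and 654 CPM in MCA-943 and 1.95 to 17.6 CPM (median 6.93) in MCA-948 (log2 fold change 6.10 ± 0.42 (SE), adjusted p = 3.05e-13). Cdh2, or N-cadherin, went the other way, at 32.7, 35.6, 33.8 and 30.8 CPM and 69 to 111 CPM (median 75.1) (log2 fold change -1.32 ± 0.16 (SE), adjusted p = 1.68e-08). Cdh1, or E-cadherin, was low in both but higher in MCA-943, at 6.81, 4.07, 3.48 and 3.94 CPM and 0.0611 to 1.3 CPM (median 0.205). The regulators Twist1 (-0.08), Snai1 (0.33), Zeb1 (0.61) and Prrx1 (-0.13) were not called. Of the 17 transition genes 3 (17.6%) were called higher and 2 (11.8%) lower, near the 17.7% and 11.3% of all genes. Keratin 18 was lower in MCA-943, with Krt18 at 2.2, 3.21, 3.1 and 3.62 CPM and 65.5 to 138 CPM (median 84.1) (log2 fold change -4.91 ± 0.34 (SE), adjusted p = 4.46e-13), along with the tight junction genes Ocln (-4.37) and Cldn4 (-2.91). The Cldn4 call was lost with the hematopoietic score as a covariate. Jup, plakoglobin of cell junctions, was higher, at 227, 229, 211 and 183 CPM and 12.7 to 28.8 CPM (median 19.4), as was Plet1, a surface protein of placental and hair follicle progenitors, at 141, 103, 118 and 126 CPM and 0.130 to 0.426 CPM (median 0.164). Of 20 integrins, the receptors for matrix, 6 (30%) were called higher and 3 (15%) lower, against 17.7% and 11.3% of all genes. The other 11 were not called. Itgb1, the most shared subunit, was at 2030, 2120, 2130 and 1830 CPM and 1570 to 1820 CPM (median 1680).

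Several transcription factors of position and early development were expressed almost only in 1 of the lines. Hox genes, which record the place of a cell along the body axis, had 30 of 39 members tested, of which 10 were called higher and 11 lower, with a single direction in the Hoxa and the Hoxb cluster and both directions in Hoxc. In the Hoxa cluster the genes Hoxa2 to Hoxa7 were all called higher in MCA-943, from 3.45 for Hoxa2 to 5.62 for Hoxa7. Hoxa7 was at 21.8, 15.9, 17 and 18.3 CPM and 0.0261 to 0.720 CPM (median 0.267). Its neighbour Hoxa9 was not called, at 0.0678, 0.173, 0 and 0.0490 CPM and 0 to 0.131 CPM (median 0.0255). In the Hoxb cluster all 8 genes from Hoxb2 to Hoxb9 were called lower, a run of 8 neighbours on chromosome 11 with a median of -5.24. Hoxb7 was at 0.102, 0.173, 0.151 and 0.392 CPM and 12.7 to 18.9 CPM (median 15.9) (log2 fold change -6.21 ± 0.25 (SE), adjusted p = 2.3e-18). Hoxc10 and Hoxc11 were lower (-4.41 and -4.03) while Hoxc4, Hoxc8 and Hoxc9 were higher, and of the Hoxd genes tested only Hoxd10 was called, lower at -2.15. Without strand, reads from a Hox gene and an antisense transcript over it cannot be told apart, and the strand setting of the counting is not given in the sources used here.

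**Figure D4:**
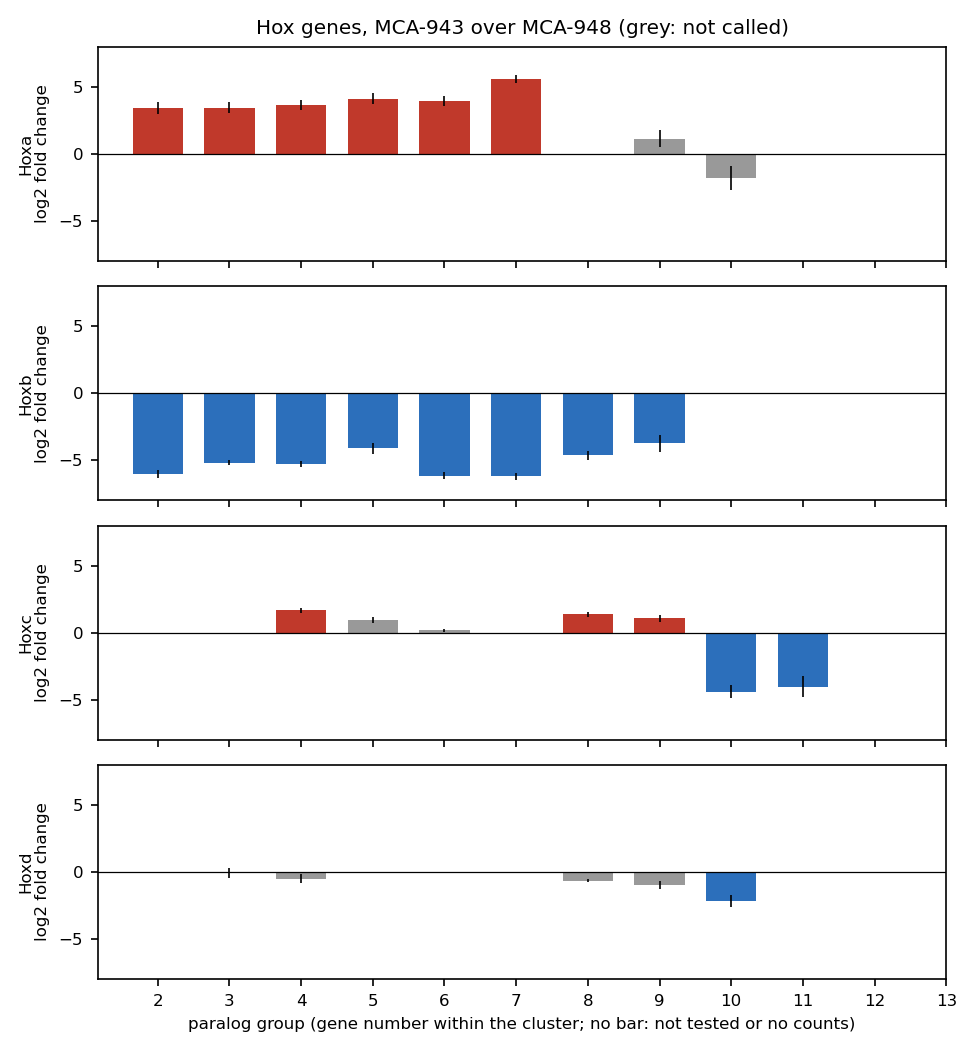
Log2 fold change of the tested Hox genes of paralog groups 2 and above, MCA-943 over MCA-948, by cluster (panels) and paralog group (horizontal axis), with bars for the SE; red and blue bars were called, grey bars were not, and Hoxa11, with 0 counts in both lines, has no bar. Hoxa2 to Hoxa7 point upward at 3.45 to 5.62 and Hoxb2 to Hoxb9 downward at -3.73 to -6.21.

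Among 70 tested positional and developmental factors (97 listed) 19 were called higher and 18 lower. Sox2, a factor of stem and neural progenitor cells, had 0 counts in all 4 MCA-943 tumors and 20.3 to 42.4 CPM (median 27.1) in MCA-948, at least 325-fold higher there. Tbx20, a factor of heart and motor neuron development, likewise had 0 counts in MCA-943 and 31 to 53.2 CPM (median 42.1) in MCA-948, at least 452-fold higher. The heart and lateral plate factors Gata4 (-5.44), Gata6 (-6.72) and Hand2 (-4.27) were lower in MCA-943 too. The Gata4 and Hand2 calls were lost when W-2G and a-1D of MCA-943 were left out together, and also with the hematopoietic score as a covariate. Lin28b, which blocks let-7 microRNAs, was at 0.0678, 0.123, 0 and 0.122 CPM against 12.8 to 22.3 CPM (median 17.8). In the other direction, Zic1, a factor of dorsal neural tube and somites, was at 56.9, 61.6, 67.6 and 58.8 CPM against 0 to 0.502 CPM (median 0.0251) (log2 fold change 8.46 ± 0.40 (SE), adjusted p = 1.23e-16), and its neighbour Zic4 at 7.15, 6.07, 7.82 and 7.3 CPM, with no MCA-948 tumor above 0.0655 CPM. Nkx3-2, a factor of axial skeleton (6.93), and Dlx1 and Dlx2 (5.24 and 3.85) were also higher. Runx2 and Prrx1, factors of skeletal and connective tissue, were not called (-0.37 and -0.13).

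Among the most abundant genes higher in MCA-948 were several of a run of 7 neighbouring genes, all called, on chromosome 6, between positions 16833373 and 17943025 of GRCm38. Met, the receptor tyrosine kinase for hepatocyte growth factor (chr6:17463800-17573980), was at 77.8, 89, 101 and 89.3 CPM in MCA-943 and 2960 to 4880 CPM (median 4430) in MCA-948. The log2 fold change was -5.54 ± 0.67 (SE), adjusted p = 3.28e-08, and the other lines had means of 350, 107 and 140 CPM. Cav1, which forms caveolae, was at 444, 445, 648 and 449 CPM against 8620 to 15700 CPM (median 12100) (log2 fold change -4.60 ± 0.22 (SE), adjusted p = 8.89e-17). Capza2, a capping protein of actin filaments, was at 225, 245, 249 and 236 CPM against 4590 to 9830 CPM (median 6680) (log2 fold change -4.84 ± 0.19 (SE), adjusted p = 7.86e-19). Tes, a focal adhesion protein, was at 180, 183, 200 and 167 CPM against 4060 to 6640 CPM (median 5690), and Cav2, the partner of Cav1, at 32.1, 30.4, 40 and 37.2 CPM against 796 to 1950 CPM (median 1170). Both ends of the run showed the change as well, with Tfec at -3.41 and St7 at -4.01. Past those ends it ceased: Mdfic, the neighbour before Tfec, had a log2 fold change of 0.85, and Wnt2, the neighbour after St7, of 1.57. The 6 MCA-948 tumors of the shared run gave a log2 fold change of -5.68 for Met and -4.63 for Cav1. Hgf, the ligand of Met, ran opposite to its receptor, at 88.7, 99.4, 111 and 91.8 CPM and 16.4 to 40.4 CPM (median 28.8) (log2 fold change 1.81 ± 0.27 (SE), adjusted p = 8.92e-07). DNA copy number was not measured in these tumors.

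**Figure D5:**
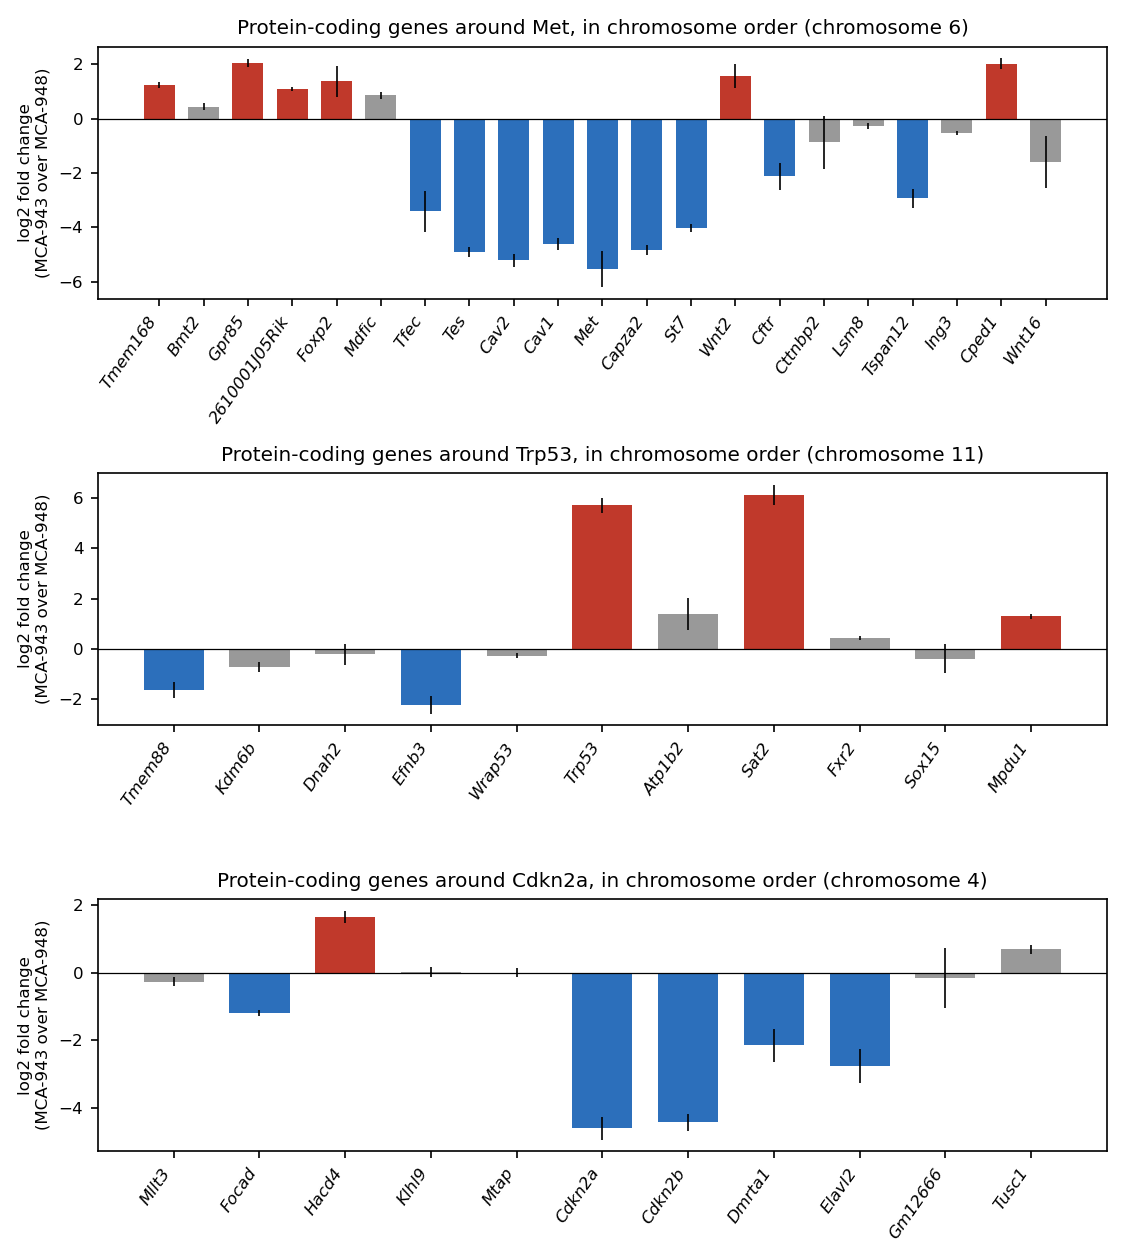
Log2 fold change with SE of the protein-coding genes around Met (chromosome 6), Trp53 (chromosome 11) and Cdkn2a (chromosome 4), in their order along the chromosome and not to distance; red and blue bars were called higher and lower in MCA-943, grey bars were not called. The 7 genes from Tfec to St7 lie at -3.41 to -5.54, while Trp53 and Sat2 rise above the genes beside them and Cdkn2a and Cdkn2b fall below them.

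The tumor suppressors Trp53 and Cdkn2a differed in opposite directions. Trp53, the gene of p53 (chr11:69580359-69591873), was at 115, 109, 109 and 116 CPM in MCA-943 and only 0.710 to 4.32 CPM (median 1.36) in MCA-948 (log2 fold change 5.70 ± 0.29 (SE), adjusted p = 8.34e-16), and the other lines had means of 142, 25 and 93.6 CPM. Within MCA-948 the tumors a-R, a-2D and a-1G held the most Trp53 and also the most Pecam1, an endothelial marker, which was at 5.82 to 114 CPM (median 23) in that line, and the part of endothelial cells was not tested. Sat2, 2 genes further along, was called higher as well (6.12), Atp1b2 between them was not (1.40, called within the shared run at 1.94), and Wrap53, which starts on the other side of Trp53, was not (-0.26). Cdkn2a, which encodes p16 and p19Arf, was at 5.42, 28.1, 8.54 and 30 CPM in MCA-943 and 349 to 646 CPM (median 411) in MCA-948 (log2 fold change -4.61 ± 0.33 (SE), adjusted p = 8.08e-13). Cdkn2b, its neighbour that encodes p15, was at 0.779, 2.44, 1.44 and 3.97 CPM and 38.4 to 59 CPM (median 48.4) (log2 fold change -4.43 ± 0.26 (SE), adjusted p = 1.13e-14). In MCA-969, MCA-970 and MCA-972 the means were 505, 631 and 460 CPM for Cdkn2a and 61.8, 82.2 and 58.5 CPM for Cdkn2b. Mtap, on the Cdkn2a side, was equal in MCA-943 and MCA-948 (0.00). Past Cdkn2b, Dmrta1 (-2.15) and Elavl2 (-2.75) were also called lower, at MCA-948 means of only 0.945 and 0.642 CPM. Within MCA-943 Cdkn2a and Cdkn2b were lowest in W-2G and a-1G and highest in a-1D and a-R, yet no tumor approached MCA-948.

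Of 40 tested genes of the p53, Ink4 and Rb pathways (41 listed) 8 (20%) were called higher in MCA-943 and 2 (5%) lower, against 17.7% and 11.3% of all genes. Phlda3, a p53 target that restrains AKT, was at 66.6, 60.3, 55.6 and 63 CPM and 4.54 to 6.68 CPM (median 5.13) (log2 fold change 3.54 ± 0.11 (SE), adjusted p = 1.22e-20). Btg2, Trp53inp1, Fas, Sesn1 and Ccng1, also p53 targets, were called higher (2.31, 2.00, 1.69, 1.32 and 1.02). The Ccng1 call was lost within the shared run and with the hematopoietic score as a covariate. Mdm2, both target and inhibitor of p53, was at 46.9, 51.7, 56.7 and 52.3 CPM and 61.1 to 77.9 CPM (median 69.2) and passed the test but not the size for a call (log2 fold change -0.41 ± 0.11 (SE), adjusted p = 0.00117). The same held for Cdkn1a, which encodes p21 (log2 fold change 0.81 ± 0.26 (SE), adjusted p = 0.00807). The p53 targets Bax (0.05) and Bbc3 (-0.16) and the tumor suppressor Rb1 (0.74) were not called.

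Signalling pathways held called genes in both directions. In the Wnt pathway 17 of 51 tested genes (61 listed) were called higher and 11 lower. Within the shared run 17 of 44 were called higher and 7 lower. Wnt5a, a ligand of the noncanonical branch, was at 140, 162, 179 and 155 CPM in MCA-943 and 31.6 to 71.9 CPM (median 47.4) in MCA-948, and Wnt7b went the other way at 4.27, 5.5, 8.66 and 4.7 CPM and 39.2 to 73.6 CPM (median 51.1). The transcription factors Tcf7 (-2.69) and Lef1 (-2.37) and the feedback genes Axin2 (-1.55), Nkd1 (-2.83) and Nkd2 (-1.25) were all lower in MCA-943. The R-spondins, which strengthen Wnt signals, divided, with Rspo2 higher (4.80) and Rspo1 lower (-5.17). The Axin2 and Nkd2 calls were lost when W-2G and a-1D of MCA-943 were left out together. With the hematopoietic score as a covariate the Nkd1, Nkd2 and Rspo1 calls were lost. The antagonists Dkk2 (1.8), Dkk3 (2.41), Frzb (3.18) and Sfrp4 (1.39) were all higher. In the Notch and Hedgehog list 8 of 32 tested (36 listed) were called higher (25%) and 7 lower (21.9%), against 17.7% and 11.3% of all genes. The Hedgehog coreceptor Boc was at 23.2, 20.7, 22 and 23.2 CPM against 0.0521 to 0.850 CPM (median 0.305), and the coreceptor Cdon at 89.4, 113, 120 and 87.1 CPM against 7.57 to 13.4 CPM (median 10.8). Notch1 was at 54.1, 49.6, 39.5 and 47.8 CPM and 23.6 to 75.3 CPM (median 43.6) and was not called, while the Notch target Hey1 and the ligands Jag2 and Dll4 were lower (-2.76, -2.15 and -2.10). The Dll4 call was lost without W-2G and a-1D of MCA-943 together, and also with the hematopoietic score as a covariate.

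In the TGF-beta family 15 of 52 tested genes (57 listed) were called higher (28.8%) and 6 lower (11.5%), against 17.7% and 11.3% of all genes. Acvrl1, a type I receptor best known from endothelium, was at 105, 105, 118 and 96.8 CPM in MCA-943 and 0.980 to 9.92 CPM (median 2.34) in MCA-948 (log2 fold change 4.93 ± 0.45 (SE), adjusted p = 1.35e-10). Its coreceptor Eng was higher too (2.71). The endothelial gene Pecam1 was not called (log2 fold change -0.52 ± 0.59 (SE), adjusted p = 0.45). The part of endothelial cells in Acvrl1 and Eng was not tested. Bmp3, an antagonist among the bone morphogenetic proteins, was at 0.169, 0.173, 0.416 and 0.171 CPM against 22.9 to 42.2 CPM (median 25.7) (log2 fold change -6.95 ± 0.47 (SE), adjusted p = 2.29e-13). Tgfb1 was not called (0.30), and the target and inhibitor Smad7 was not (-0.71). Receptor tyrosine kinases had 15 called higher and 6 lower of 44 tested (51 listed), and among the lower ones Met stood with the ephrin receptor Epha7 (-5.75). Pdgfra, the receptor that marks fibroblasts, was at 1290, 1400, 1730 and 1270 CPM and 375 to 657 CPM (median 508) (log2 fold change 1.53 ± 0.15 (SE), adjusted p = 3.9e-10), and Egfr at 148, 163, 169 and 138 CPM and 33.1 to 66.7 CPM (median 42.9).

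Growth factors also differed in both directions, with 20 of 60 tested (65 listed) called higher and 13 lower. Mdk, the heparin-binding factor midkine, was at 0.542, 1.88, 0.113 and 1.1 CPM in MCA-943 and 80.3 to 306 CPM (median 185) in MCA-948 (log2 fold change -7.65 ± 0.41 (SE), adjusted p = 2.03e-15). The EGFR ligands Areg and Tgfa were lower in MCA-943 (-3.73 and -4.66), as was the insulin-like factor Igf2, at 0.949, 2.15, 2.19 and 2.11 CPM against 19.4 to 96.8 CPM (median 34.2), while Igf1 was higher (2.26). Fgf1, Fgf2 and the neurotrophin Bdnf were higher, with Fgf2 at 16.9, 19.4, 15.9 and 17.7 CPM and 1.59 to 2.58 CPM (median 1.98). Of 41 Ras and ERK genes 9 (22%) were called higher and 4 (9.76%) lower, near the 17.7% and 11.3% of all genes, and 28 were not called. Myc, the growth regulator, was at 120, 172, 164 and 202 CPM and 505 to 1620 CPM (median 690) (log2 fold change -2.31 ± 0.40 (SE), adjusted p = 1.1e-05), with the 2 tumors of the other run at the top of MCA-948. Within the shared run its log2 fold change was -1.94. In the Hippo list 22 of 30 were not called, 5 (16.7%) were called higher and 3 (10%) lower, also near the shares of all genes. Among the YAP targets Ccn2, or CTGF, was at 205, 226, 250 and 358 CPM and 9.63 to 41.2 CPM (median 15.4), while Wwc1, the upstream scaffold KIBRA, was at 1.86, 3.43, 3.1 and 3.23 CPM and 41.2 to 61.5 CPM (median 46.9). Yap1 itself was at 122, 138, 129 and 138 CPM and 115 to 138 CPM (median 131).

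Imprinted genes and clustered protocadherins also differed in both directions. Of 37 tested imprinted genes (42 listed) 12 were called higher (32.4%) and 7 lower (18.9%), against 17.7% and 11.3% of all genes. The maternally expressed noncoding RNAs Meg3, Rian and Mirg and the paternally expressed Dlk1, all of 1 imprinted domain on chromosome 12, were higher in MCA-943 (4.36, 5, 3.65 and 5.73). Dlk1 was at 228, 268, 201 and 356 CPM and 1.95 to 8.87 CPM (median 5.23). The domain of H19 and Igf2 was lower, with H19 at 121, 161, 157 and 139 CPM and 224 to 603 CPM (median 443). Ndn, or necdin, was at 0.102, 0.173, 0 and 0.0735 CPM against 16.6 to 38.9 CPM (median 29.1). Clustered protocadherins, which label single neurons and are chosen promoter by promoter, had 19 of 41 tested genes (57 listed) called higher and 6 lower. Pcdhgb1 was at 44, 48.4, 49.6 and 35.1 CPM against 0.417 to 1.04 CPM (median 0.753), whereas Pcdhgb2, in the same cluster, was at 1.32, 1.01, 1.13 and 1.37 CPM against 52.6 to 71.6 CPM (median 58.5). The gamma protocadherins share their last exons, which the counting could divide between them.

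Sex-linked genes differed in both directions. Xist, the RNA of the inactive X chromosome, was at 550, 583, 530 and 543 CPM in MCA-943 and at most 0.245 CPM in MCA-948 (log2 fold change 12.68 ± 0.30 (SE), adjusted p = 3.92e-23). The Y-linked Ddx3y was at 1.8, 1.9, 0.945 and 1.67 CPM and 66.2 to 97.2 CPM (median 86.3), and all 8 tested genes of the Y chromosome were called lower. The sex of the primary tumor's mouse is not given in the sources used here. Neural genes were divided, with 10 of 31 tested (43 listed) called higher (32.3%) and 9 lower (29%), against 17.7% and 11.3% of all genes. Among them were Stmn2, a microtubule regulator of neurons, at 546, 468, 500 and 435 CPM against 0.744 to 5.86 CPM (median 2.84) (log2 fold change 7.41 ± 0.73 (SE), adjusted p = 6.37e-10), and Map2, a dendrite protein, at 0.0339, 0.0740, 0.0378 and 0.0980 CPM against 2.74 to 6.67 CPM (median 4.9). The skeletal muscle regulators were scarcely detected, with Myog at 0 in all 12 tumors and Myod1 at 0 in 10 of them.

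Respiratory and cholesterol genes were mostly not called, and the called cell cycle and glycolysis genes were mostly lower in MCA-943. Of 65 tested oxidative phosphorylation genes (66 listed) 62 were not called, and of 32 genes of cholesterol synthesis and uptake 27 were not called. The shares called higher and lower were 3.08% and 1.54% for the former and 9.38% and 6.25% for the latter. Among all genes they were 17.7% and 11.3%. Of 56 cell cycle genes 48 were not called, 8 (14.3%, near the 11.3% of all genes) were called lower in MCA-943 and 0 higher. Those 8 were Hells, Mybl2, Ccne2, Cdc6, Mcm4, Cdt1, Rrm2 and Cenpe, and Mybl2, a transcription factor of dividing cells, was at 21, 19.3, 20.9 and 25.6 CPM and 53 to 76.5 CPM (median 65.2). Mki67, the proliferation marker, was at 382, 344, 314 and 339 CPM and 361 to 471 CPM (median 386) and was not called. Of 45 glycolysis and hypoxia genes 13 were called lower and 3 higher, and the glucose transporter Slc2a1 was at 134, 125, 157 and 89.8 CPM and 132 to 443 CPM (median 282), with overlap. The mean level of the list was highest in the 2 tumors of the other run, and within the shared run 9 were called lower. Ass1, which makes arginine from citrulline, was at 450, 391, 394 and 423 CPM against 22.7 to 48.7 CPM (median 37) (log2 fold change 3.5 ± 0.21 (SE), adjusted p = 2.33e-14).

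Some genes that handle foreign compounds and vitamin A differed between the lines. Methylcholanthrene is itself a ligand of the aryl hydrocarbon receptor, and of 24 tested genes of this receptor and of retinoid metabolism (29 listed) 12 were called higher and 3 lower. Ahr, the receptor, was at 3.73, 2.69, 2.53 and 2.79 CPM in MCA-943 and 14.4 to 29.7 CPM (median 23.9) in MCA-948 (log2 fold change -2.94 ± 0.27 (SE), adjusted p = 1.4e-10). Cyp1b1, a monooxygenase that the receptor induces, went the other way at 9.18, 8.12, 10 and 16.9 CPM and 0.0917 to 1.81 CPM (median 0.561) (log2 fold change 4.03 ± 0.47 (SE), adjusted p = 1.32e-08). Rbp4, the carrier of retinol in blood, was at 0.237, 0.666, 0.529 and 0.441 CPM and 5.08 to 24.2 CPM (median 11.7), and was also called between the runs within MCA-948. Among 34 tested NRF2 targets (38 listed) 6 (17.6%) were called higher and 5 (14.7%) lower, close to the 17.7% and 11.3% of all genes, and Nqo1, a quinone reductase, was at 8.07, 7.13, 6.84 and 8.2 CPM and 3.64 to 16.9 CPM (median 7.95) and was not called. Of 46 tested genes of amino acid and aldo-keto metabolism (48 listed) 6 were called higher and 10 lower, with Phgdh, the entry enzyme of serine synthesis, not called at 167, 151, 136 and 174 CPM and 208 to 299 CPM (median 241).

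Axon guidance genes, which also steer nonneural cells, had 22 of 61 tested members (69 listed) called higher and 9 lower. Sema3a, a secreted repellent, was at 140, 153, 199 and 145 CPM in MCA-943 and 47.9 to 96 CPM (median 53.1) in MCA-948, and Robo2, a receptor for Slit proteins, at 22.9, 18.7, 27.8 and 25 CPM and 0.948 to 1.82 CPM (median 1.25). Of 43 germline genes 13 were tested, 6 called higher and 2 lower. Rhox5, a homeobox gene of the testis that many tumors express, was at 3.66, 2.34, 1.7 and 2.96 CPM and 0.299 to 0.602 CPM (median 0.352). Of 13 tested mitochondrially encoded genes 1 was called higher (7.69%) and 2 lower (15.4%), against 17.7% and 11.3% of all genes.

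Stress-induced early genes, which respond within the time of tissue dissociation, were higher in MCA-943 in 20 of 30 cases and lower in 0. Hspa1a and Hspa1b, near-identical genes of inducible HSP70, were at 448 to 543 CPM and 1450 to 1710 CPM in MCA-943 and at 30.7 to 69.8 CPM (median 48.8) and 82.7 to 172 CPM (median 132) in MCA-948. Dnajb1, their cochaperone, was at 1430, 1410, 1790 and 1410 CPM against 143 to 281 CPM (median 163) (log2 fold change 3.06 ± 0.17 (SE), adjusted p = 1.11e-15). Fos, a subunit of AP-1, was at 3170, 3350, 3250 and 2890 CPM against 709 to 1450 CPM (median 1090) (log2 fold change 1.58 ± 0.18 (SE), adjusted p = 1.27e-08). Jun, Egr1, Atf3 and Fosb were not called (0.97, 0.76, 0.74 and 0.54), and neither were Hsp90aa1 (-0.66) and Hsph1 (-0.28). Dissociation and handling times are not given in the sources used here, and their part in these genes was not tested.

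The remaining genes with the widest differences were Cadps, a protein of vesicle release, with 0 counts in MCA-943 and 14.5 to 34.2 CPM (median 23.4) in MCA-948 (at least 275-fold higher there), Ptprf, a receptor phosphatase at 0.237, 0.247, 0.151 and 0.122 CPM against 33.1 to 72 CPM (median 51.2), Lingo2, a neuronal membrane protein at 4.24, 6.44, 6.16 and 4.36 CPM against at most 0.0266 CPM, and Nfe2l3, a transcription factor of the NRF family at 9.93, 4.74, 4.91 and 7.03 CPM against at most 0.0401 CPM. Per kilobase of exon, the most abundant genes higher in MCA-943 included Col1a1, Col3a1, B2m, Postn, Sparc, Spp1, Bgn and Fos. On that scale, CPM per kilobase, the means of MCA-943 and MCA-948 were 3990 and 383 for B2m, 2100 and 317 for Col1a1 and 1350 and 451 for Fos. The most abundant higher in MCA-948 included Cav1, Capza2, Tes, Cav2, Met and Cdkn2a, with means of 144 and 3500 for Cav1 and 26.7 and 800 for Tes, together with Pgk1 and mt-Nd1. The Pgk1 call was lost with the run as a covariate, and the mt-Nd1 call with limma-voom, with the title letter as a covariate, and without a-1G or a-R of MCA-943 or W-1D or W-2G of MCA-948. Col3a1, a fibrillar collagen, was at 18800, 18700, 21200 and 18800 CPM against 3990 to 5820 CPM (median 4790) (log2 fold change 2.01 ± 0.16 (SE), adjusted p = 7.63e-12). Spp1, the matrix cytokine osteopontin, was at 2630, 2430, 2260 and 2280 CPM against 183 to 427 CPM (median 321) (log2 fold change 2.92 ± 0.24 (SE), adjusted p = 1.6e-11).

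Along the chromosomes the median difference was not level. Among the autosomes it was lowest on chromosome 3, at -0.49 over 943 genes, where 11.5% of genes were called higher and 22.5% lower, followed by chromosome 5 at -0.30 and chromosome 13 at -0.25. It was highest on chromosome 15 at 0.29 and chromosome 17 at 0.23, the chromosome of the H2 genes. Within the shared run the medians of chromosomes 3 and 15 were -0.48 and 0.31. Of 25 runs of at least 5 neighbouring protein-coding genes called in the same direction in both fits, 22 were higher in MCA-943 and 3 were lower, the latter being the Met run, the Hoxb run and a run of Y-linked genes.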

How the data were processed

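RNA of 30 tumors was sequenced, and the comparison used 12 of them. The authors deposited raw counts per gene, made per the file headers and methods by alignment with STAR 2.5.3a to GRCm38, removal of duplicates by molecular identifier and counting with featureCounts (1.5.2 in the submitters' processing notes). Strand and options of the counting are not given in the sources used here. Genes were named through GENCODE M21 (48058 of 48440), and the rest kept their ID as name, without a position.

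Counts were tested with edgeR 4.0.16 in R 4.3.3 (filterByExpr, TMM scaling, robust quasi-likelihood test with line as the factor over all 30 tumors, so that the 5 lines share an estimate of the spread) and refitted on the 10 tumors of the shared run. Calls needed a Benjamini-Hochberg adjusted p under 0.05 and an absolute log2 difference of 1. DESeq2 1.42.0 and limma-voom (limma 3.58.1) were alternatives, beside other filters, thresholds, covariates and tumors left out. On simulated counts of 16862 genes for this comparison, edgeR recovered 180 of 200 genes changed by a log2 fold of 2, with 1 other gene called. In that simulation all other genes were equal in every line, and the changes were balanced in direction. In the data 4890 genes were called, more of them higher, so the simulated count of other calls does not carry over. Promoter letters were searched in RefSeq promoters.

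Genes were named by rule. They were the 12 protein-coding genes with the largest differences in each direction and the 8 with the highest level per kilobase, among genes called in both fits without overlap and with at least 5 CPM in the higher line. In each list they were the 2 written at its head and up to 3 called members in each direction, of at least 1 CPM. Members and lists were chosen with earlier results of these data known. Title codes W-2G, a-1G and a-R occur in both lines, but deviations from the line means correlated at 0.129, -0.168 and 0.17, so the codes did not pair the tumors. Some genes are not reported here.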

Additional observations from a re-analysis of the deposited data

Results flagged for a closer look

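Of 203 groups of tumor values examined, 16 held a tumor whose gap to its nearest neighbour took an unusually large share of the range of its line. Chance flags about 1 in 20 groups, and the tumors of a line share many deviations, so the flags are not independent.

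Within MCA-943, a-1G was highest for Col3a1 (21200 CPM, next 18800), Cav1 (648, next 449), Nt5e (14.3, next 11.1), Hspa1b (1710, next 1460) and Dnajb1 (1790, next 1430). W-2G was highest for Cd80 (27.7, next 22.9) and lowest for Igf2 (0.949, next 2.11), and a-R was highest for C1s1 (303, next 204).

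Within MCA-948, W-1D was highest for Ptprc (9.18 CPM, next 4.66), Cd74 (9.86, next 4.42) and H2-D1 (80.9, next 69.6). The tumor a-R of the other run was highest for Col12a1 (587, next 368), Thbs4 (19.5, next 9.45) and Ccn2 (41.2, next 23.8). W-2G was highest for Acan (37.1, next 20.9) and Bmp3 (42.2, next 30.8).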

How the results depend on the processing

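Of 306 tested genes among those named by the rule or added, 270 were called, and 222 of these kept call and direction under every alternative other than the 4-fold threshold. Counts of calls moved by more than 1.5 times mainly with the threshold. At 4-fold, 1522 genes were called higher and 620 lower in MCA-943 (1396 and 459 within the shared run), and with no fold threshold 5667 and 5220 (5568 and 5329). Testing against a 2-fold change itself (glmTreat) left 940 lower, and keeping only genes with a mean of at least 1 CPM left 1182 lower. Without a fold threshold, 1139 genes were higher and 1208 lower in the shared run than in the other run within MCA-948. Without each replicate in turn, calls ranged from 2858 to 3054 higher and 1814 to 2123 lower, and within the shared run from 2720 to 2870 and 1591 to 1847. With DESeq2 they were 2941 and 2012, and with limma-voom 3020 and 1732. With the title code as a replicate block, 2836 were called higher and 1738 lower, and within the shared run 2322 and 1298. The mean correlation between the lines was 0.326 over the 500 most variable genes.

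Ptprc was the gene whose direction turned, at -0.01 with the hematopoietic score as a covariate and -0.27 without MCA-943 W-2G and a-1D, a setting chosen after seeing the data that left 2788 genes higher and 1746 lower. The cause of the other changes was not tested. Each line is 1 cell line, 2 MCA-948 tumors lie in another run, and genes at a few counts per tumor, such as Ifng and Ifnb1, are limited by depth.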
